A study of Mus musculus with 2 samples.

Results

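The genes described here encode the proteasome and its regulators, taken as every gene whose symbol starts with Psma, Psmb, Psmc, Psmd or Psme. The rule found 45 genes of 32285 in the count tables, and 5 of them, Psmb8, Psmb9, Psmb10, Psme1 and Psme2, were set against the remaining 40. They were read in T cells from subcutaneous tumours of EMT6, a transplantable mouse mammary carcinoma line, grown in BALB/c mice 4 to 6 weeks of age. Mice were randomised at tumour volumes of 80 to 150 mm3 to mSTAR1302 or vehicle. The labels give mSTAR1302 as an antibody treatment injected into the peritoneum for 2 cycles at 1 dose per week, and state no schedule for vehicle. Tumours were dissociated, CD4+ and CD8+ cells were captured on magnetic beads, and the cells were sequenced in droplets, where each captured transcript counts as 1 unique molecular identifier (UMI). Each group is a single library, and the sources used here do not say how many mice went into it. Differences between libraries therefore have no replicate check and were not tested, and the 95% intervals in brackets reflect counting error alone.

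The proteasome is the protease that degrades ubiquitin-tagged proteins. Its barrel-shaped core (20S) has outer rings of alpha subunits and inner rings of beta subunits, and its cap (19S) has ATPases that unfold the substrate and non-ATPases that bind and remove ubiquitin. In lymphocytes, and elsewhere after interferon-gamma, the catalytic subunits Psmb5, Psmb6 and Psmb7 are exchanged for Psmb8, Psmb9 and Psmb10, which gives the immunoproteasome, and Psme1 and Psme2 form PA28, a ring that can sit on the core in place of the cap and is known for its part in making peptides for MHC class I.

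After filters of at least 1000 UMIs, at least 500 genes and at most 10% mitochondrial UMIs, 9155 mSTAR1302 and 7615 vehicle cells were kept, with 17 barcodes occurring in both libraries. T cells had at least 2 UMIs of Cd3d, Cd3e and Cd3g together. CD8 cells (Cd8a or Cd8b1, no Cd4) numbered 6290 and 2460, with median depths of 6597.5 and 9865.5 UMIs. CD4 cells without a UMI of Foxp3, the transcription factor of regulatory T cells, numbered 791 and 622, and CD4 cells with one 146 and 1365; they are called CD4 Foxp3- and CD4 Foxp3+ cells, although a cell with no Foxp3 UMI may still express the gene. The CD8 gate did not exclude cells with a UMI of Foxp3, which were a larger share of the vehicle cells. Without them 6097 and 2058 CD8 cells remained, and values that moved without them are given with the other settings at the end. The 6 T cell markers were Cd3d, Cd3e, Cd3g, Trac, Cd2 and Lat. Cd3d, Cd3e and Cd3g also set the gate, so a high sum was fixed in advance. The markers summed to 4260.2 against 4356 counts per 1000000 UMIs (CPM) in CD8 cells. The sums were 4582 against 3996 in CD4 Foxp3- cells and 4197 against 4381 in CD4 Foxp3+ cells. The 10 macrophage markers summed to 82.7 against 919.5 CPM in CD8 cells, 85.0 against 1349.7 in CD4 Foxp3- cells and 12.8 against 345 in CD4 Foxp3+ cells. None of the 10 was higher with mSTAR1302 in any gate, and C1qa, C1qc, Csf1r, Adgre1, Ms4a7 and Fcgr1 were at 0 in its CD4 Foxp3+ cells. The 9 dendritic cell markers summed to 55.5 against 287, 54.9 against 459 and 58.6 against 377 CPM in the same order of gates, and the 8 markers of EMT6 tumour and stroma to 50.04 against 150.3, 45.6 against 85.9 and 93.1 against 85.1. Of the 8 tumour and stroma markers 1, 0 and 2 were higher with mSTAR1302 in the same order of gates. Pecam1 made up much of their mSTAR1302 sums, at 25.7 against 15.2, 41.0 against 48.4 and 68.2 against 45.1 CPM. The 4 B cell markers summed to at most 6.42 CPM in any gate. The part of these markers in the results was not tested beyond the values without cells holding C1q or Lyz2 given further on. In what follows, levels are CPM of the summed cells of a gate, not divided by gene length, paired values give mSTAR1302 first, and ratios are mSTAR1302 over vehicle.

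The sequences before the RefSeq starts of 4 of the 5 inducible genes are shown, because the ratios of these interferon targets differed within CD8 cells. Psme2 is not shown. Each is the 250 bases before the RefSeq start on GRCm38.p6, 5' to 3' on the gene's own strand, with any match to TTCNNNGAA in capitals. The stretches are chr8:105938393-105938642 (minus) for Psmb10, chr17:34197945-34198194 (plus) for Psmb8, chr17:34187331-34187580 (minus) for Psmb9 and chr14:55578244-55578493 (plus) for Psme1. The GENCODE M21 annotation starts these genes further upstream, at 34197721 for Psmb8, 34187764 for Psmb9 and 55578123 for Psme1. By that annotation these stretches lie inside the genes. That of Psmb10, which starts at 105938444, lies partly inside. The stretches may therefore hold transcribed sequence.
Psmb10: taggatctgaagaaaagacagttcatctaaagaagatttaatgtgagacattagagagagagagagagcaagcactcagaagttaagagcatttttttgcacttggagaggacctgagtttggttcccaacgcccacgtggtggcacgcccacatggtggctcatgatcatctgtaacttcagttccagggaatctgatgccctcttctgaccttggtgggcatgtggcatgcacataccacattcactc
Psmb8: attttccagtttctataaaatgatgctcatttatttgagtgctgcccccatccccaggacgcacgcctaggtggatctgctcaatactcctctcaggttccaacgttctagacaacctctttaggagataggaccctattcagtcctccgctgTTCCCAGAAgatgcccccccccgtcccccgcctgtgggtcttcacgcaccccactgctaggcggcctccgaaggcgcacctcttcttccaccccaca
Psmb9: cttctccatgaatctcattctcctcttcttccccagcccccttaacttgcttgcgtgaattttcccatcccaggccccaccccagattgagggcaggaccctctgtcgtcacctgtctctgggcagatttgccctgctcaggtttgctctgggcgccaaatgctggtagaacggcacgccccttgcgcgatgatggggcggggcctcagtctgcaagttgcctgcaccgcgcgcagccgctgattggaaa
Psme1: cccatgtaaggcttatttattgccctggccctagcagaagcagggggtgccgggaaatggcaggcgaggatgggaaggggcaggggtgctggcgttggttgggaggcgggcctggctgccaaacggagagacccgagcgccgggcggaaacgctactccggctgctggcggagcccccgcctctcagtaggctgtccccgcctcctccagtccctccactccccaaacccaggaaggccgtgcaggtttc

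RefSeq windows of 300 bases, from 250 before to 50 after the start, were at hand for 38 of the 45 members, 41 windows in all. The pattern TTCNNNGAA is the palindrome bound by STAT factors. It stood in 4.88% of member windows, those of Psmb8 and Psmd2, against 8.3% of all 32851 windows. In Psmb8 it lies 97 to 89 bases before the RefSeq start, inside the gene as GENCODE M21 annotates it. The core of the interferon-stimulated response element, read as GAAA, any 2 bases and GAAA again, stood in 9.76% of member windows (Psmb3, Psmd4, Psmd9 and Psme1) against 3.44% of all. In Psme1 it lies 9 to 18 bases after the start, outside the printed stretch. TGACNNNGC, the core of the antioxidant response element, stood in 14.6% against 12.4%, CCAAT in 36.6% against 37.4%, and GGGCGG, the GC box, in 56.1% against 35.7%. All were searched on both strands, and TTCNNNGAA reads the same on either. The Psmb9 window shares 275 bases with that of Tap1, which starts on the other strand and encodes a subunit of the peptide transporter. These are matches of letters, with no measurement of binding.

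In CD8 cells Psmb10, the inducible trypsin-like subunit, had the highest ratio of the members counted. It stood at 163 CPM (159 to 166) with mSTAR1302 and 122 (118 to 126) with vehicle, a ratio of 1.34 (1.28 to 1.39). Psmb8, the inducible chymotrypsin-like subunit, had more UMIs than any other member in both libraries, at 707 against 675 CPM and a ratio of 1.05 (1.03 to 1.07). Psmb9, the third inducible catalytic subunit, pointed the other way, at 323 against 359 CPM and a ratio of 0.8995 (0.877 to 0.922). Both PA28 genes were higher with mSTAR1302. Psme1 was at 530.1 against 443 CPM, a ratio of 1.20 (1.17 to 1.22), and Psme2 at 322 against 280.5 CPM, a ratio of 1.15 (1.12 to 1.18). Among the inducible beta subunits, the interval of Psmb10 lay above that of Psmb8, and that of Psmb9 lay below 1. These intervals cover counting error alone, and the difference among the subunits was not tested.

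The constitutive subunits that they replace had ratios below 1. Psmb7, the counterpart of Psmb10, stood at 93.8 against 113 CPM, a ratio of 0.831 (0.794 to 0.869). Psmb5, the counterpart of Psmb8, stood at 129 against 144 CPM, a ratio of 0.899 (0.864 to 0.935). For Psmb6, the counterpart of Psmb9, at 138 against 142 CPM, the interval of the ratio held 1 (ratio 0.975, 0.937 to 1.01).

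**Figure D1:**
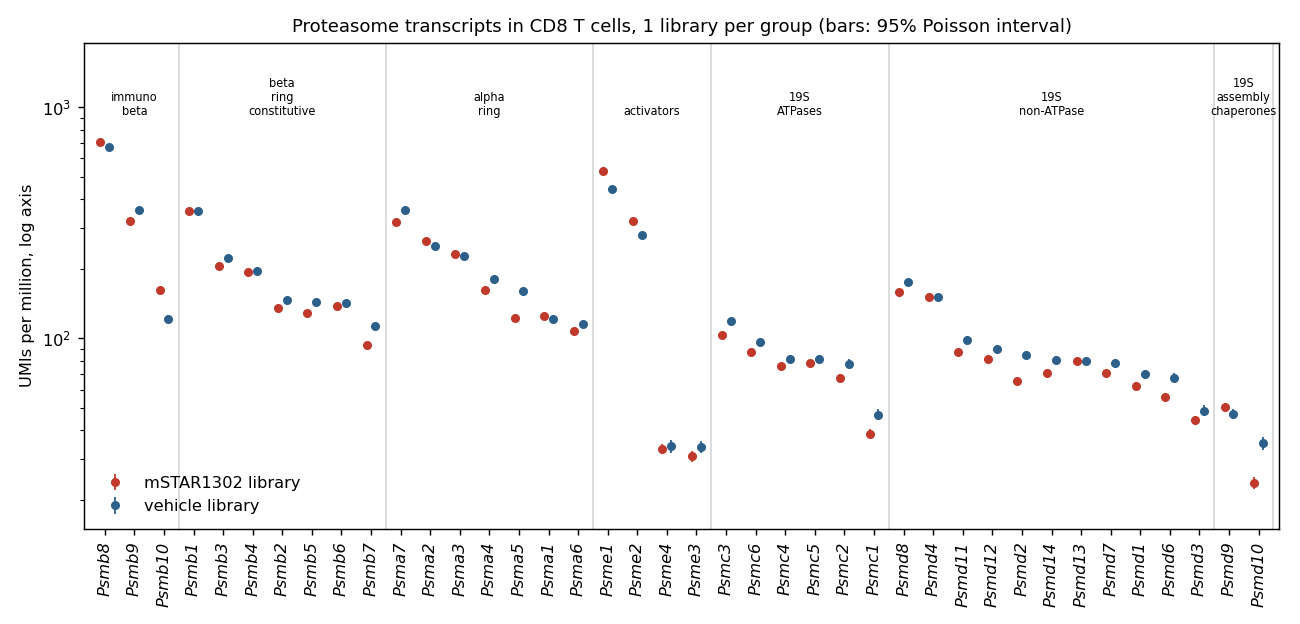
UMIs per 1000000 (log axis) of the 40 members with a mean of at least 20 CPM in CD8 cells, grouped by role, in the mSTAR1302 and vehicle libraries, with 95% Poisson intervals. Psmb10, Psme1 and Psme2 lie higher with mSTAR1302, and Psmd10 shows the lowest ratio, at 23.6 against 35.1 CPM.

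Of the 45 members, 40 had a mean of at least 20 CPM over both libraries, and counts of differences are over these, at a limit of 0.32 on the log2 scale. Psmb10 alone was at least 0.32 higher in CD8 cells, 1 of 40, where 6.97% of 5139 genes were. Psmd10, Psma5 and Psmd2 were at least 0.32 lower, 3 of 40, against 22.7% of all genes. No member was past 1.5-fold either way, where 2.88% of all genes were higher and 8.37% lower. The median log2 ratio was -0.13 over the 40 members and -0.13 over all genes counted, while that of the 5 inducible genes was 0.20. With median-ratio scaling, which sets the typical gene near 0, Psmb9 stayed below 0 (log2 -0.02), the other 4 stayed above it, and the summed remaining 40 turned to a ratio of 1.02.

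Among the 7 alpha-ring genes, which gate the entry to the core, 3 had ratios above 1, and 4 were above 0 with median-ratio scaling. Of all 5139 genes counted in CD8 cells, 1454 were above 0 on the log2 scale, and 2543 with median-ratio scaling. These counts also stand beside those of the beta ring and the cap below. Psma2 stood at 263 against 249.7 CPM, a ratio of 1.05 (1.02 to 1.08). Psma1 (125 against 121 CPM) and Psma3 (231 against 228 CPM) had ratios of 1.04 and 1.01, with intervals that held 1. Psma5 stood lower with mSTAR1302, at 122 against 161 CPM and a ratio of 0.762 (0.733 to 0.792), but its log2 ratio was 0.0048 among cells of 4000 to 10000 UMIs. No constitutive beta-ring gene had a ratio above 1, with Psmb1 level at 354 against 355 CPM (ratio 0.999, 0.975 to 1.02), whereas with median-ratio scaling 5 of 7 were above 0.

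All 6 cap ATPases had ratios below 1, although 2 were above 0 with median-ratio scaling, and their sum was 451 against 503 CPM, a ratio of 0.897 (0.878 to 0.916). The median log2 ratio was -0.17 over these 6, beside -0.13 over all genes. Psmc1 was the lowest, at 38.6 against 46.7 CPM and a ratio of 0.826 (0.770 to 0.886), and Psmc3 was at 103 against 119 CPM, a ratio of 0.869 (0.832 to 0.908). The 11 non-ATPases were also below 1, with 2 above 0 under median-ratio scaling. Their median log2 ratio was -0.15, beside the same -0.13 over all genes. Psmd2, the large scaffold where ubiquitin receptors and shuttle factors dock, stood at 65.1 against 85.1 CPM, a ratio of 0.766 (0.726 to 0.807), and Psmd6, a lid subunit, at 56.0 against 67.5 CPM, a ratio of 0.830 (0.782 to 0.880). Psmd4, a ubiquitin receptor, was level at 150.5 against 151 CPM.

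The assembly chaperones, which help to build the cap base and then leave it, differed from each other. Psmd10, also called gankyrin, stood at 23.6 against 35.1 CPM, a ratio of 0.673 (0.618 to 0.733), the lowest of the 40. Psmd9 stood at 50.6 against 47.1 CPM, a ratio of 1.07 (1.004 to 1.15). Psmd5 was under the mean of 20 CPM, at 16.03 against 19.8. Of the other activators, Psme3, the nuclear relative of PA28, was at 30.9 against 33.9 CPM (ratio 0.910, 0.839 to 0.987), and Psme4, the large activator PA200, at 33.3 against 34.1 CPM (ratio 0.977, 0.903 to 1.06).

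The tissue-restricted core subunits had almost no UMIs. Psma8, a testis subunit, had 6 and 9 UMIs in CD8 cells, and Psmb11, a subunit of the thymic cortex, had 1 and 0, where 0 of 2460 cells, read as a limit of 3 counts, allows up to 0.122% of cells with a UMI and sets no limit on cells that express it. Psmc3ip, whose symbol meets the rule but whose protein acts in meiotic recombination and is no proteasome subunit, was at 8.20 against 7.15 CPM. Psme2b, a near-identical copy of Psme2, was at 8.93 against 9.95 CPM, and reads may be split between the copies.

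In CD4 Foxp3- cells all 5 inducible genes were higher with mSTAR1302. Psmb8 stood at 711 against 558 CPM, a ratio of 1.27 (1.21 to 1.34). Psmb9, lower in CD8 cells, stood here at 344 against 289 CPM, a ratio of 1.19 (1.11 to 1.28). Psmb10 was at 138 against 122 CPM, a ratio of 1.13 (1.01 to 1.26), the lowest of the 5 here and the highest in CD8 cells. Its log2 ratio was -0.0135 among dividing cells alone, those with a UMI of Mki67 or Top2a at full depth. For the PA28 pair, Psme1 was at 524 against 421 CPM (ratio 1.24, 1.17 to 1.32) and Psme2 at 368 against 279.9 CPM (ratio 1.31, 1.22 to 1.41).

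Among the other members in CD4 Foxp3- cells, Psmb1, a constitutive and non-catalytic beta subunit, had the highest ratio, 1.37 (1.28 to 1.47), at 415 against 303 CPM. Psma1 was at 134 against 103 CPM (ratio 1.30, 1.15 to 1.46) and Psmd8, a lid subunit, at 168 against 145 CPM (ratio 1.16, 1.04 to 1.29). The lowest ratios were those of the lid subunit Psmd3 (39.2 against 51.4 CPM, ratio 0.764, 0.628 to 0.927), Psme4 (33.9 against 42.8 CPM, ratio 0.791, 0.640 to 0.978) and Psmc1 (36.0 against 44.4 CPM, ratio 0.810, 0.659 to 0.995). Psmb5, Psmb6 and Psmb7 had ratios of 0.952, 0.955 and 0.930, with intervals that held 1. Psmb1, Psme2, Psma1 and Psmb8 were at least 0.32 higher, 4 of 40, against 6.88% of 5100 genes. Psmd3 and Psme4 were at least 0.32 lower, 2 of 40, against 34.0%. The median log2 ratio was 0.04 over the 40 members, -0.18 over all genes and 0.31 over the 5 inducible genes. Psmd5, under 20 CPM, was at 8.81 against 17.6 CPM (ratio 0.501, 0.339 to 0.731).

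In CD4 Foxp3+ cells the intervals of all 5 inducible genes held 1, and the 146 mSTAR1302 cells limit what could be seen. Psmb8 was at 832 against 841 CPM (ratio 0.990, 0.928 to 1.05). Psmb9 was at 453 against 454 CPM (ratio 0.996, 0.912 to 1.09) and Psmb10 at 140.4 against 136 CPM (ratio 1.03, 0.876 to 1.20). Psme1 was at 536 against 578 CPM (ratio 0.928, 0.856 to 1.004) and Psme2 at 502 against 486 CPM (ratio 1.03, 0.951 to 1.12). Psmd10, lowest in CD8 cells, was the 1 of 40 members at least 0.32 higher, at 40.9 against 31.5 CPM (ratio 1.30, 0.952 to 1.74), against 5.83% of 5405 genes. The lid subunit Psmd11 (85.0 against 113 CPM, ratio 0.752, 0.612 to 0.916) and Psmd2 (87.5 against 112 CPM, ratio 0.782, 0.638 to 0.9501) were the 2 at least 0.32 lower, against 23.4%. With the constitutive counterparts set aside, Psmd13 and Psmc6 followed above 1 (1.16 and 1.15) and Psmd6 below it (0.806), and these 3 intervals held 1. So did those of Psmb5 (1.04), Psmb6 (1.16) and Psmb7 (0.923). The median log2 ratio was -0.05 over the 40 members and -0.12 over all genes.

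**Figure D2:**
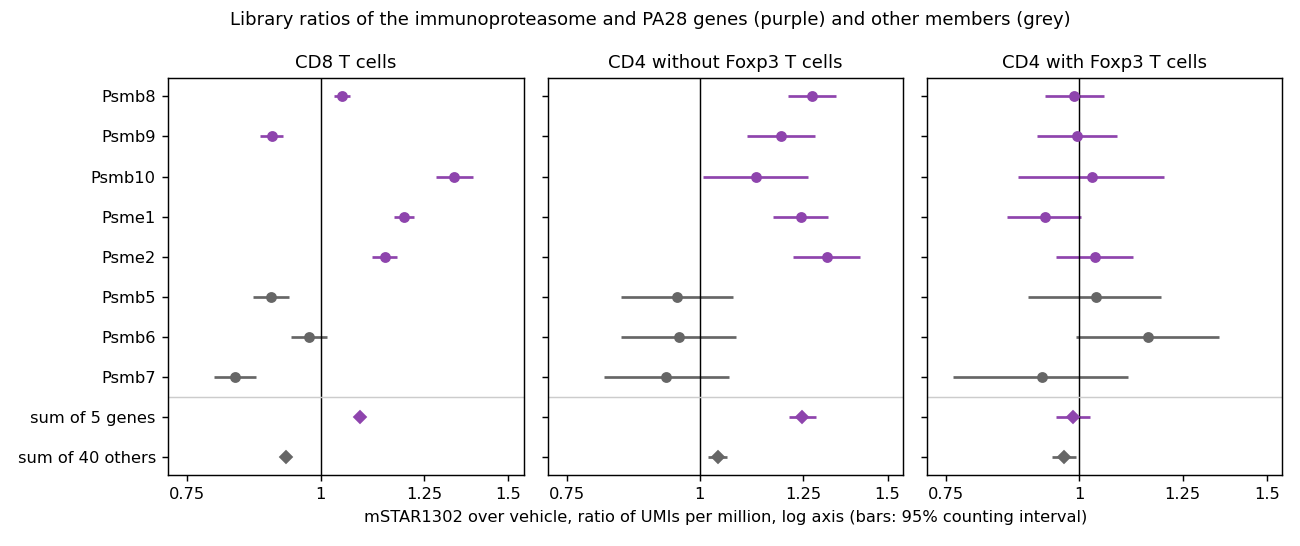
Ratio of CPM, mSTAR1302 over vehicle (log axis), with 95% counting intervals, for the 5 inducible genes, their constitutive counterparts, and the sums of the 5 genes and of the remaining 40, in each gate. The 5 genes spread in CD8 cells from 0.8995 for Psmb9 to 1.34 for Psmb10, lie above 1 in CD4 Foxp3- cells, and have intervals that hold 1 in CD4 Foxp3+ cells.

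Summed over the 5 genes, the level in CD8 cells was 2045 against 1879.5 CPM, a ratio of 1.09 (1.08 to 1.10). In CD4 Foxp3- cells it was 2085 against 1671 CPM (ratio 1.248, 1.21 to 1.29), and in CD4 Foxp3+ cells 2463 against 2495 CPM (ratio 0.987, 0.951 to 1.02). The remaining 40 summed to 4128 against 4447 CPM in CD8 cells (ratio 0.928, 0.922 to 0.935), 3973 against 3823 in CD4 Foxp3- cells (ratio 1.04, 1.02 to 1.06) and 4999 against 5165 in CD4 Foxp3+ cells (ratio 0.968, 0.943 to 0.993). Relative to the remaining 40, the ratio of the 5 genes was 1.17 (1.16 to 1.19) in CD8 cells, 1.20 (1.16 to 1.24) in CD4 Foxp3- cells and 1.02 (0.975 to 1.07) in CD4 Foxp3+ cells. The CD8 ratio of the 5-gene sum over the CD4 Foxp3- ratio was 0.872 (0.845 to 0.8998), a difference between gates that was not tested.

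Each inducible subunit can also be read against the one it replaces, as a share that does not depend on how the libraries are scaled. In CD8 cells Psmb10 made up 63.4% against 51.9% of the UMIs of Psmb10 and Psmb7, a difference of 11.5 (10.1 to 13.0) percentage points. Psmb8 made up 84.5% against 82.4% of its pair with Psmb5, a difference of 2.10 (1.503 to 2.70) points. Psmb9 made up 70.1% against 71.7% of its pair with Psmb6, a difference of -1.65 (-2.60 to -0.705) points that turned to 0.539 with 10% free RNA subtracted. In CD4 Foxp3- cells the differences were all above 0, at 3.79 (2.09 to 5.52) points for Psmb8, 4.21 (1.504 to 6.94) for Psmb9 and 4.68 (0.458 to 8.88) for Psmb10. In CD4 Foxp3+ cells all 3 intervals held 0, at -0.639 (-2.90 to 1.43), -2.74 (-6.07 to 0.346) and 2.64 (-3.25 to 8.33) points.

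**Figure D3:**
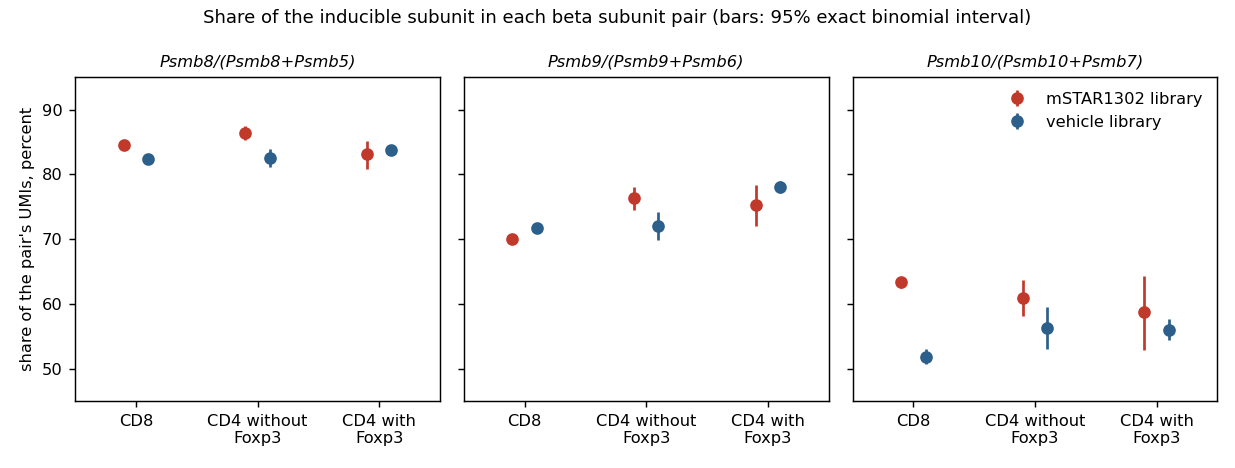
Share of the inducible subunit among the UMIs of its pair, in percent, with exact binomial intervals, by gate and library. The widest gap is that of Psmb10 against Psmb7 in CD8 cells, 63.4% against 51.9%.

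Levels of the members varied with the depth of the cell, which differed between libraries. In vehicle CD8 cells the remaining 40 stood at 3164 CPM in cells of 1000 to 4000 UMIs and at 5491 above 16000. Within the ranges of 1000 to 4000, to 8000, to 16000 and above 16000 UMIs, the CD8 ratios of the remaining 40 were 1.03, 1.06, 1.06 and 0.917, below 1 in the deepest range and above it in the others. The 5 genes had ratios above 1 in all 4 ranges, 1.36, 1.09, 1.15 and 1.08. For Psmb10 they were 1.38, 1.32, 1.497 and 1.15, and for Psmb9 1.01, 0.925, 0.927 and 0.974. Psma5 had 1.35, 1.08, 0.994 and 0.713, crossing 1, and Psmd10 0.927, 0.804, 0.767 and 0.685, below 1 throughout. In CD4 Foxp3- cells the 5-gene ratios were 1.47, 1.32, 1.23 and 1.04, and the interval of the last, from 17 and 20 cells, held 1. In CD4 Foxp3+ cells they were 1.47, 1.08, 0.957 and 1.04, with intervals above 1 in the first range (1.20 to 1.78, from 22 and 146 cells) and the second (1.01 to 1.16) and holding 1 in the others, while the pooled ratio was 0.987. No doublet caller was run here, and without cells above 20000 UMIs the 5-gene ratio in CD8 cells was 1.10 and that of the remaining 40 1.02.

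**Figure D4:**
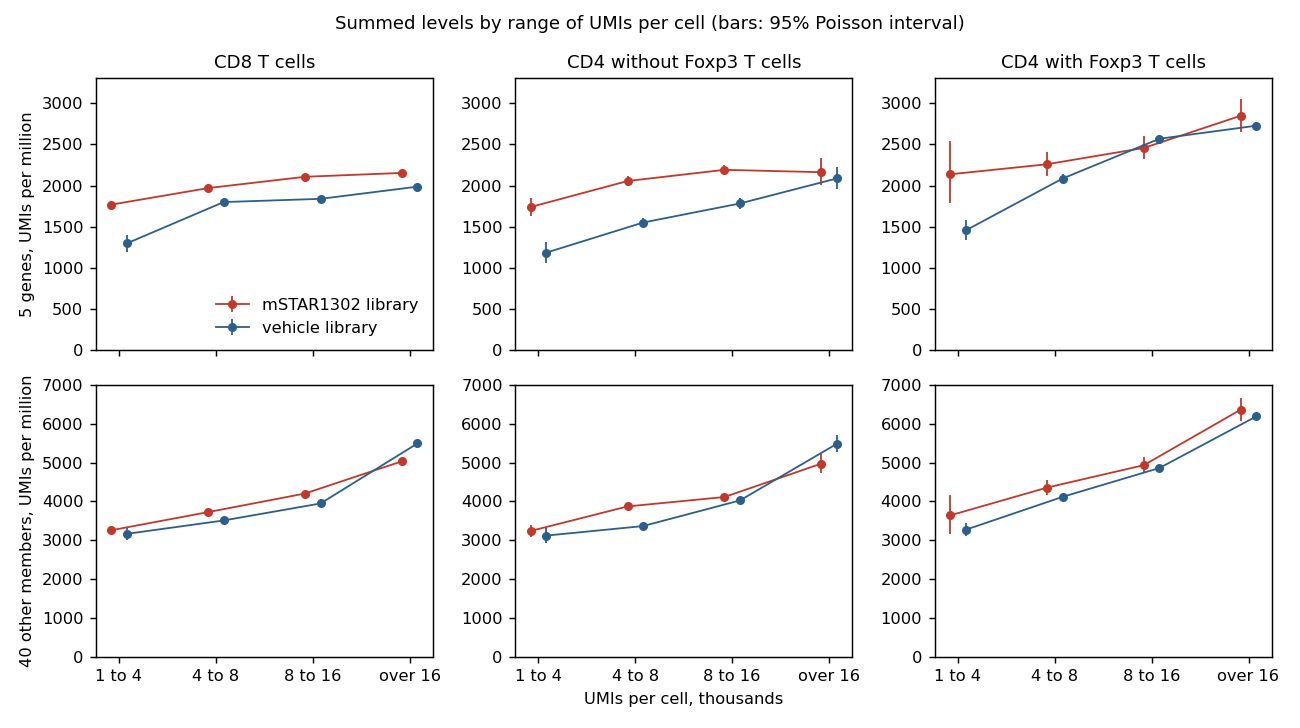
Summed CPM of the 5 inducible genes and of the remaining 40 members in 4 ranges of UMIs per cell, by gate and library, with 95% Poisson intervals. In CD8 cells the 5 genes lie higher with mSTAR1302 in every range, and the remaining members cross between 8000 to 16000 UMIs and the deepest range.

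Macrophage markers were lower with mSTAR1302, and cells holding C1qa, C1qb, C1qc or Lyz2 could be left out. This took a larger share of the vehicle cells in each gate. Left were 5792 of 6290 against 1473 of 2460 CD8 cells. In the CD4 gates 728 of 791 against 407 of 622 Foxp3- cells and 137 of 146 against 840 of 1365 Foxp3+ cells were left. Without cells that had a UMI of C1qa, C1qb, C1qc or Lyz2, an alternative chosen after seeing the data, the 5-gene ratio was 1.08 in CD8, 1.21 in CD4 Foxp3- and 0.980 in CD4 Foxp3+ cells. The log2 ratio of Psmb10 in CD8 cells was then 0.52, against 0.41 with all cells. Barcodes with C1q and no Cd3 UMIs, 14 and 50 in number, held the 5 genes at 1916 and 1680.0 CPM. Droplets of 10 to 100 UMIs, which sample free RNA, held them at 1975 and 2141 CPM, with Psmb9 at 288 and 433.

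As a share of cells, Psmb10 was seen in 58.7% of mSTAR1302 and 60.0% of vehicle CD8 cells at full depth. With every cell read at 3000 UMIs, and 680 and 120 shallower cells left out, the shares were 36.4% (35.2 to 37.7) and 27.4% (25.6 to 29.2). Psmb8 was seen at that depth in 82.7% and 82.7%. In the barcodes with C1q, whose cells express these genes too, Psmb10 was seen in 3 of 13 and 13 of 41 at 3000 UMIs. At full depth, with medians of 13551 and 22586.5 UMIs, it was seen in 10 of 14 and 42 of 50.

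Inside each library, CD8 cells with and without certain state genes differed in Psmb10. Cells of at least 3000 UMIs were sorted by whether a draw of 3000 UMIs held the state gene, and levels were then taken from all their UMIs, so that depth was not made equal. Cells with a UMI of Isg15, an interferon-induced ubiquitin-like protein, had Psmb10 at 228 against 146 CPM in cells without one in the mSTAR1302 library, a ratio of 1.56 (1.49 to 1.64), and at 214 against 109 CPM in the vehicle library, a ratio of 1.96 (1.80 to 2.12). The other 4 inducible genes were also higher in them, with ratios of 1.22 to 1.41 over both libraries. The remaining 40 had 0.9995 (0.989 to 1.01) with mSTAR1302 and 1.16 (1.14 to 1.18) with vehicle. Cells with an Isg15 UMI made up 21.3% and 12.9% of CD8 cells (32.6% and 26.1% at full depth), beside 0.150% and 0.153% of near-empty droplets. Their median depths were 7057 and 9140.5 UMIs, against 7168 and 10252 in cells without one. The library ratio of Psmb10 was 1.07 (0.984 to 1.16) among them and 1.34 (1.28 to 1.402) among cells without one.

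Cells with a UMI of Gzma, a serine protease of cytotoxic granules, made up 55.0% of CD8 cells with mSTAR1302 and 5.30% with vehicle (64.9% and 7.68% at full depth). Near-empty droplets held one in 1.17% and 0.0872%, and at 3000 UMIs 1 of 13 and 0 of 41 barcodes with C1q did. Median depths were 6882 and 8583 UMIs in Gzma cells and 7457 and 10181 in the others. Psmb10 stood at 192 against 132 CPM in cells with and without Gzma in the mSTAR1302 library, and at 181 against 119 in the vehicle library, ratios of 1.46 (1.39 to 1.53) and 1.52 (1.32 to 1.74). Psme1 was higher in Gzma cells as well, by 1.22 and 1.34, and Psme2 by 1.14 and 1.16. Psmb8 had 1.16 (1.14 to 1.19) with mSTAR1302 and 0.937 (0.871 to 1.007) with vehicle. For Psmb9 the ratios were 1.11 (1.08 to 1.15) and 0.951 (0.860 to 1.05). Between libraries, the Psmb10 ratio was 1.06 (0.924 to 1.22) among Gzma cells and 1.11 (1.05 to 1.16) among the others. The 5-gene sum had 1.07 (1.03 to 1.12) and 0.999 (0.987 to 1.01). The vehicle Gzma cells numbered 124. The Psmb10 ratio of 1.34 is over all CD8 cells, including those under 3000 UMIs. How far the share of Gzma cells enters it was not tested.

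Other states gave smaller or opposite differences. Cells with a UMI of Pdcd1, an inhibitory receptor of stimulated T cells, had Psmb10 ratios of 0.694 (0.651 to 0.739) with mSTAR1302 and 0.8002 (0.746 to 0.858) with vehicle against cells without one, and Psme1 ratios of 0.742 and 0.914. Between libraries, the 5-gene ratio was 0.970 (0.951 to 0.990) among Pdcd1 cells and 1.12 (1.10 to 1.13) among the others, and the Psmb10 ratio 1.14 (1.05 to 1.23) and 1.31 (1.249 to 1.38). Psmb8 had 0.962 (0.931 to 0.995) and Psme1 0.990 (0.949 to 1.03) among Pdcd1 cells, where both were above 1 in CD8 cells as a whole. Cells with a UMI of Tcf7, a transcription factor of naive and stem-like T cells, had the remaining 40 at ratios of 0.864 and 0.819, while the Psmb10 intervals held 1. Dividing cells, here those with a UMI of Mki67 or Top2a in the draw, had the remaining 40 at 1.11 and 1.13 and Psmb9 at 1.28 and 1.19. They numbered 1282 and 499. Elsewhere in the text dividing cells are those with such a UMI at full depth, 2096 and 1046 CD8 cells. The library ratio of Psmb10 was 1.31 (1.22 to 1.42) in dividing cells and 1.35 (1.29 to 1.42) in the rest.

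**Figure D5:**
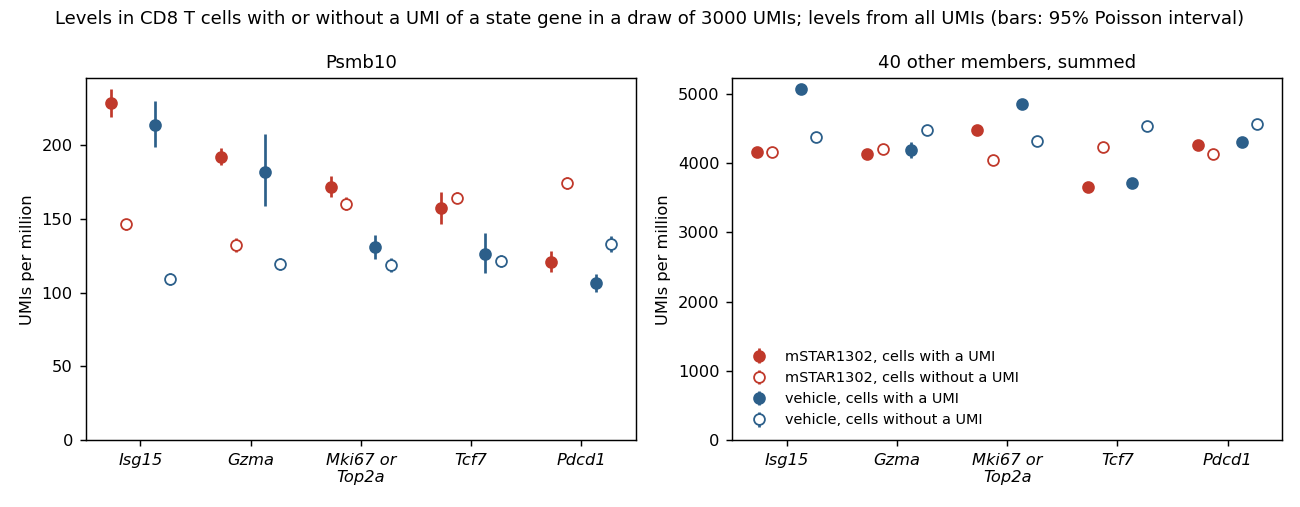
CPM of Psmb10 and of the remaining 40 members in CD8 cells with or without a UMI of each state gene in a draw of 3000 UMIs, by library, with levels from all UMIs of the cells and 95% Poisson intervals. Psmb10 lies highest in Isg15 cells, at 228 with mSTAR1302 and 214 with vehicle, and the remaining members lie lowest in Tcf7 cells.

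Between T cell classes of the same library, CD4 Foxp3+ cells had the highest summed levels of the 3 gates. Their 5-gene sum over that of CD8 cells was 1.20 (1.16 to 1.249) with mSTAR1302 and 1.33 (1.31 to 1.35) with vehicle, and for the remaining 40 it was 1.21 (1.18 to 1.24) and 1.16 (1.15 to 1.17). Against CD8 cells, 20 of 40 members were at least 0.32 higher with mSTAR1302 and 14 of 40 with vehicle, beside 34.5% and 31.5% of all genes. None was at least 0.32 lower, beside 13.6% and 12.4% of all genes. Of the 5, Psme2 had 1.56 (1.44 to 1.69) and 1.73 (1.68 to 1.79). The ATPase Psmc1 had 1.79 (1.42 to 2.22) and 1.53 (1.41 to 1.66). For Psmb10 the interval held 1 with mSTAR1302, 0.864 (0.739 to 1.003), and lay above it with vehicle, 1.12 (1.06 to 1.18). Psme2 and Psmc1 were singled out here after their values were seen.

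CD4 Foxp3- cells had a 5-gene sum over CD8 cells of 0.889 (0.867 to 0.911) with vehicle and 1.02 (0.999 to 1.04) with mSTAR1302. None of 40 members was at least 0.32 higher than in CD8 cells, beside 10.6% and 20.7% of all genes with mSTAR1302 and vehicle. With mSTAR1302 2 of 40 were at least 0.32 lower, beside 12.7%, and with vehicle 7 of 40, beside 15.9%.

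Other genes of the pathway were read from lists in the same way. Of 16 assembly factors and partners counted in CD8 cells, none was at least 0.32 higher and 2 were at least 0.32 lower, with a median log2 ratio of -0.17, beside 6.97% and 22.7% of all genes and their median of -0.13. Pomp, which assembles the core, was at 232 against 246 CPM, Usp14, which trims ubiquitin at the cap, at 37.4 against 48.9 (0.766), and Nfe2l1, the transcription factor that raises proteasome genes when proteolysis fails, at 29.8 against 49.2 (ratio 0.605, 0.562 to 0.652). Of 12 MHC class I loading genes none was higher past the limit and 2 were lower, with a median of -0.15, against the same shares of all genes. In CD4 Foxp3- cells 1 of the 12, Tap1, was higher past the limit and 4 were lower, with a median of -0.20, beside 6.88% and 34.0% of all genes and their median of -0.18. Tap1, the neighbour of Psmb9, had 0.947 (0.914 to 0.982) in CD8 and 1.29 (1.17 to 1.42) in CD4 Foxp3- cells, where Psmb9 had 0.8995 and 1.19.

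Psmb8, Psmb9, Psmb10, Psme1 and Psme2 are themselves known interferon targets, so other such genes were counted beside them. Of 12 interferon-induced genes counted in CD8 cells, 10 were at least 0.32 higher and none lower, beside 6.97% and 22.7% of all genes, with a median of 0.68, among them Gbp2, a guanylate-binding protein, at 78.0 against 42.0 CPM (1.86) and Isg15 at 124 against 81.1 (1.54). In CD4 Foxp3- cells 3 of 12 were higher past the limit and 5 lower, with a median of -0.16, beside 6.88% and 34.0% of all genes, whose median was -0.18, and 0.31 for the 5 proteasome genes. Of 11 interferon signalling genes in CD8 cells 4 were higher and 2 lower past the limit, against the CD8 shares of all genes given above. Among them Ifngr1, a chain of the interferon-gamma receptor, had 1.46, Irf1 1.26 and Irf9 1.26, and Irf8 had 0.421 and Ifnar1 0.796. The other chain, Ifngr2, was under the mean of 20 CPM, at 1.91 against 6.81 CPM (ratio 0.280, 0.216 to 0.360). In CD4 Foxp3- cells none of 12 signalling genes was higher past the limit and 5 were lower, beside 6.88% and 34.0% of all genes. Ifngr1 had 0.889 there, Irf1 0.836 and Irf9 0.827.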

How the data were processed

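Both libraries are 3' droplet RNA sequencing of T cells from tumours. The deposited matrices hold whole-number UMI counts for every gene and barcode; per the file headers they came from Cell Ranger 4, while the submitters' processing notes list Cell Ranger 6.0.1, mm10, FastQC, MultiQC 1.9 and Seurat. No source used here names the gene annotation or says whether counting used the strand. Psmb9 overlaps Tap1, Psmb8 overlaps Gm20496, Psmb10 overlaps Gm16156 and Psme1 overlaps Emc9 on the other strand in GENCODE M21 (GRCm38), where all 45 members were found, so reads of these pairs may be shared.

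Counts were summed over a gate's cells and divided by the gate's total (CPM). Intervals at 95% are exact Poisson for levels, conditional binomial for ratios, Clopper-Pearson for shares and Newcombe for their differences, with Wald intervals for a ratio of ratios. Log2 ratios used a pseudocount of 1 CPM. Genes with a mean of at least 20 CPM were counted as different past 0.32 on the log2 scale, and past 1.5-fold. Where cells were thinned, each was drawn down to 3000 UMIs. The code was tested on simulated counts, with Python 3.11.15, matplotlib 3.10.9, NumPy 2.4.6, pandas 2.3.3 and SciPy 1.17.1.

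The members and lists were chosen with earlier results of these data known. Named were the 5 inducible genes and their counterparts, the 6 other members with the largest and the 6 with the smallest CD8 ratio, 3 and 3 in each CD4 gate, and members under 20 CPM. Alternatives covered scaling, cell weighting, depth, mitochondrial limit, gates, free RNA, dividing cells, pseudocount and minimum level; the C1q and Lyz2 filter and the 4 depth ranges were chosen after seeing the data.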

Additional observations from a re-analysis of the deposited data

Results flagged for a closer look

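For 4 of the 45 members the library ratio lay on opposite sides of 1 in CD8 and in CD4 Foxp3- cells, with both counting intervals clear of 1. No share of all genes meeting this rule was counted. The median log2 ratio over all genes counted was itself below 0, at -0.13 in CD8 and -0.18 in CD4 Foxp3- cells. Psma5, an alpha-ring subunit, had 0.762 in CD8 and 1.13 in CD4 Foxp3- cells, and the first ratio over the second was 0.672 (0.593 to 0.762). By range of UMIs per cell, from shallow to deep, its CD8 ratios were 1.35, 1.08, 0.994 and 0.713. Only above 16000 UMIs did the CD8 interval lie below 1 (0.669 to 0.760). In CD4 Foxp3- cells the ratios of Psma5 by range were 1.15, 1.30, 1.14 and 0.809. Psma7, another alpha-ring subunit, had 0.888 in CD8 and 1.12 in CD4 Foxp3- cells, and the first ratio over the second was 0.792 (0.731 to 0.859). Psmb9, the inducible subunit, had 0.9 in CD8 and 1.19 in CD4 Foxp3- cells, and the first ratio over the second was 0.755 (0.700 to 0.815). Psmd8, a lid subunit of the cap, had 0.906 in CD8 and 1.16 in CD4 Foxp3- cells, and the first ratio over the second was 0.782 (0.702 to 0.872). These intervals cover counting error, and with 1 library in each group the difference between gates was not tested. Over the 15 other settings that give a log2 ratio, the CD8 sign was the same in 15 for Psmb9 and Psmd8 and in 14 for Psma5 and Psma7, and the CD4 Foxp3- sign was the same in 15 for each. The highest CD8 log2 ratio over these settings was -0.022 for Psmb9, -0.012 for Psmd8, 0.024 for Psma7 and 0.0048 for Psma5. The cause was not tested.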

How the results depend on the processing

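No paired analysis was possible because each group is 1 library, and for the same reason no replicate could be left out. The value as reported stands in brackets, followed by the settings that moved it beyond its counting interval or, for counts of members, beyond 1.5 times; the cause was not tested. 5-gene sum ratio, CD8 cells (1.09), was 1.19 with median-ratio scaling, 1.13 with cells of 4000 to 10000 UMIs, 1.10 with 2 lineage UMIs or no cells above 20000 UMIs or dividing cells, 1.11 with no Foxp3 in the CD8 gate or 10% free RNA subtracted. Remaining sum ratio, CD8 cells (0.928), was 1.02 with median-ratio scaling or no cells above 20000 UMIs, 0.972 with equal weight per cell, 1.04 with cells of 4000 to 10000 UMIs, 0.990 with thinning, 0.973 with 2 lineage UMIs, 0.962 with no Foxp3 in the CD8 gate, 0.982 with non-dividing cells, 0.908 with dividing cells, 0.988 with no C1q or Lyz2 cells. Members past the limit higher, CD8 cells (1), was 3 with median-ratio scaling. Members past the limit lower, CD8 cells (3), was 1 with median-ratio scaling or equal weight per cell or cells of 4000 to 10000 UMIs or thinning or 2 lineage UMIs or no Foxp3 in the CD8 gate or no cells above 20000 UMIs or non-dividing cells, 5 with dividing cells. 5-gene sum ratio, CD4 Foxp3- cells (1.248), was 1.42 with median-ratio scaling, 1.29 with equal weight per cell, 1.32 with cells of 4000 to 10000 UMIs or non-dividing cells, 1.30 with 10% free RNA subtracted, 1.15 with dividing cells. Remaining sum ratio, CD4 Foxp3- cells (1.04), was 1.18 with median-ratio scaling, 1.07 with equal weight per cell or thinning or no cells above 20000 UMIs, 1.13 with cells of 4000 to 10000 UMIs, 0.984 with 2 lineage UMIs, 1.09 with non-dividing cells, 0.971 with dividing cells. Members past the limit higher, CD4 Foxp3- cells (4), was 14 with median-ratio scaling, 11 with cells of 4000 to 10000 UMIs, 7 with thinning, 8 with non-dividing cells, 1 with dividing cells. Members past the limit lower, CD4 Foxp3- cells (2), was 0 with median-ratio scaling or a pseudocount of 10 CPM or a minimum mean of 50 CPM, 1 with equal weight per cell or cells of 4000 to 10000 UMIs or thinning or at least 2000 UMIs or at least 4 Cd3 UMIs or no cells above 20000 UMIs or no C1q or Lyz2 cells, 4 with at most 5% mitochondrial UMIs or no minimum mean, 5 with 2 lineage UMIs, 6 with dividing cells. 5-gene sum ratio, CD4 Foxp3+ cells (0.987), was 1.08 with median-ratio scaling, 1.05 with cells of 4000 to 10000 UMIs or thinning or non-dividing cells. Remaining sum ratio, CD4 Foxp3+ cells (0.968), was 1.06 with median-ratio scaling, 0.998 with equal weight per cell, 1.08 with cells of 4000 to 10000 UMIs, 1.02 with thinning, 0.999 with no cells above 20000 UMIs, 1.01 with non-dividing cells. Members past the limit higher, CD4 Foxp3+ cells (1), was 3 with median-ratio scaling or equal weight per cell or no cells above 20000 UMIs, 9 with cells of 4000 to 10000 UMIs, 6 with thinning or non-dividing cells, 0 with 2 lineage UMIs or dividing cells or a pseudocount of 10 CPM or a minimum mean of 50 CPM, 2 with no minimum mean. Members past the limit lower, CD4 Foxp3+ cells (2), was 0 with median-ratio scaling, 1 with equal weight per cell or cells of 4000 to 10000 UMIs or no cells above 20000 UMIs or a pseudocount of 10 CPM, 4 with non-dividing cells. 5-gene over remaining sum, double ratio, CD8 cells (1.17), was 1.12 with equal weight per cell or non-dividing cells, 1.08 with cells of 4000 to 10000 UMIs or no cells above 20000 UMIs, 1.10 with thinning or no C1q or Lyz2 cells, 1.13 with 2 lineage UMIs, 1.15 with no Foxp3 in the CD8 gate, 1.19 with 10% free RNA subtracted, 1.21 with dividing cells. Immuno share of 6 beta subunits, points, CD8 cells (2.38), was 1.29 with equal weight per cell, 1.21 with cells of 4000 to 10000 UMIs, 1.66 with thinning, 1.71 with 2 lineage UMIs, 1.69 with no Foxp3 in the CD8 gate, 0.588 with no cells above 20000 UMIs, 3.12 with 10% free RNA subtracted, 1.32 with non-dividing cells, 3.21 with dividing cells, 0.892 with no C1q or Lyz2 cells. 5-gene sum, CD4 Foxp3+ cells over CD8, vehicle (1.33), was 1.26 with equal weight per cell, 1.249 with cells of 4000 to 10000 UMIs, 1.29 with thinning, 1.37 with 2 lineage UMIs or 10% free RNA subtracted, 1.36 with no Foxp3 in the CD8 gate, 1.31 with no cells above 20000 UMIs, 1.28 with non-dividing cells. 5-gene over remaining sum, double ratio, CD4 Foxp3- cells (1.20), was 1.2499 with 2 lineage UMIs, 1.15 with no C1q or Lyz2 cells. Immuno share of 6 beta subunits, points, CD4 Foxp3- cells (4.60), was 6.31 with 2 lineage UMIs, 3.11 with no C1q or Lyz2 cells. Immuno share of 6 beta subunits, points, CD4 Foxp3+ cells (-0.857), was 0.957 with non-dividing cells. 5-gene sum, CD4 Foxp3+ cells over CD8, mSTAR1302 (1.20), was 1.15 with dividing cells. Under all settings 169 of these main values stayed within the limits and 121 moved, and of the values for single genes and shares 2226 stayed, 530 moved and 2 turned sign. The last were Psma5 in CD8 cells (log2 0.0048 in cells of 4000 to 10000 UMIs) and the Psmb9 share difference in CD8 cells (0.539 points with 10% free RNA subtracted), and smaller values that crossed 0, such as the log2 ratio of Psmb10 in dividing CD4 Foxp3- cells, are not among these. In CD8 cells Psmb10 was at least 0.32 higher and Psmd10 at least 0.32 lower on the log2 scale in all 15 settings that give one. The mSTAR1302 CD4 Foxp3+ cells had the fewest UMIs in all of the gates compared, 1246325 from 146 cells.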
